A study of Mus musculus with 6 samples.

Results

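Immediate early response genes are the genes that a cell switches on within minutes of a stimulus, without first making new protein. The group described here is Fos, Jun, Junb, Egr1, Atf3, Klf4, Ier2, Dusp1, Btg2 and Ccn1. Its members were taken as every probe set of the array that the array's annotation gives exactly 1 gene symbol, where that symbol is one of these 10. The rule found 16 of the 12488 probe sets on the array, and these covered 10 of 8252 genes that the annotation names. Soleus, a postural muscle, had been taken from male mice and its total RNA measured with 1 array per sample. There were 3 wild-type C57BL/6 samples and 3 samples of BERKO mice, which lack estrogen receptor beta. The labels give no age or treatment, no strain for the knockout and no account of how the allele was made, and they do not tie a sample to a single animal. The p-values below therefore measure only the spread among these samples, which may be technical.

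Growth factors, membrane depolarisation, stretch and stress reach these genes through kinase cascades that phosphorylate factors already bound at their promoters, chiefly serum response factor with its partners and the cAMP response element binding protein. Their messages are short-lived, so a burst fades soon after the stimulus ends. Fos, Jun and Junb form the AP-1 transcription factors, Egr1, Atf3 and Klf4 are transcription factors of other families, and Dusp1 is a phosphatase that switches off the kinases that induced it. In muscle the same genes respond to contraction, and in any tissue they respond to the interval of dissection and handling before RNA is taken. Time of dissection, anaesthesia and the order of the animals are not given in the sources used here, so handling and genotype cannot be told apart for any sample.

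The targeted gene gave no check of the labels. The probe set of Esr2, which encodes estrogen receptor beta, read 2.2, 3.2 and 1.3 on the wild-type arrays and 8.4, 3.9 and 6.2 on the knockout arrays, at or near the floor of 7.8, to which lower values were set. Genes of soleus muscle fibres were measured for 10 of 10 markers, and none of them lay below the filter on all arrays. Their summed intensity was 61160 to 77980 in wild type and 77680 to 83050 in the knockout. As a measure of intact RNA, the Gapdh control probes gave 3'/5' ratios of 0.979 to 1.12 in wild type and 0.953 to 1.04 in the knockout. The titles of 4 arrays share a prefix, and those of the other 2 (replicate 2 of each group) share another, whose meaning is not given.

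The upstream sequences of 8 of the 10 genes were found in a RefSeq promoter table (build GRCm38.p6), and those of Egr1 and Ier2 were not used here. The 250 bases before the start site are shown for Fos, Dusp1, Btg2 and Atf3. Dusp1 and Btg2 hold a full cAMP response element, and Fos and Atf3 are among the genes whose groups did not overlap below. Capitals mark the cAMP response element TGACGTCA, its half-site TGACG on either strand (read CGTCA on the strand shown when it lies on the other), and the TATA box TATAAA.
Fos, chr12:85473640-85473889, plus strand: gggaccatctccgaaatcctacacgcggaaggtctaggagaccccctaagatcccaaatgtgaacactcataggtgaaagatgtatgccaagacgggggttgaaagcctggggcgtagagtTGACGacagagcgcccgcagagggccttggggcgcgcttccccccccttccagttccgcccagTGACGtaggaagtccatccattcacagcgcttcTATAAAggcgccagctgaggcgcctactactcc
Dusp1, chr17:26508473-26508722, minus strand: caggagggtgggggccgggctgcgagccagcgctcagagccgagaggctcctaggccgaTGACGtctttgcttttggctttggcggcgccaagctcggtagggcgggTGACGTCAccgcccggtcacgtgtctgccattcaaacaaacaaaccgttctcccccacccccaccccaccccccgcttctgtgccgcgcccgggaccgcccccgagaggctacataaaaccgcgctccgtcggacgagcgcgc
Btg2, chr1:134079156-134079405, minus strand: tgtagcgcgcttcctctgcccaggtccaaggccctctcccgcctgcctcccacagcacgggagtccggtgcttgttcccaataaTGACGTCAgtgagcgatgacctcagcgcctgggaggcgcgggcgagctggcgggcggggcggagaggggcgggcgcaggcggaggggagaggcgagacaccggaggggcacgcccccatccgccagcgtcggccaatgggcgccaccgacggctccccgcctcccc
Atf3, chr1:191183334-191183583, minus strand: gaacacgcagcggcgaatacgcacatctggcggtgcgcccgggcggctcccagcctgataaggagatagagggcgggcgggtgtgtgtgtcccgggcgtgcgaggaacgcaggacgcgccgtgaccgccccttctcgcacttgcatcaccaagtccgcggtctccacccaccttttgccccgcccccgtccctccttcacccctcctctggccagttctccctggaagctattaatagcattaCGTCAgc

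The full element TGACGTCA was found in 2 of the 8 members, Dusp1 and Btg2, and in 1.55% of all 32851 promoter windows in the table. Among the windows of genes tested on the array the share was 2.47%. The half-site TGACG, searched after the sequences had been seen, stood in 7 of the 8 members, all but Jun, against 17.8% of all windows and 27.0% of the windows of tested genes. In Fos it lay 66 to 62 bases before the start site, and again at 129 to 125. The TATA box TATAAA was found in Fos and Ccn1 and in 12.4% of all windows. The EGR site GCGGGGGCG was found in Klf4 and in 2.57% of all windows. The CArG box, the AP-1 site TGANTCA and the EGR site GCGTGGGCG were found in 0 of the 8 members, and in 1.47%, 6.75% and 0.536% of all windows. Among the windows of tested genes TATAAA stood in 7.34% and GCGGGGGCG in 5.14%. The CArG box, TGANTCA and GCGTGGGCG stood in 1.48%, 4.89% and 0.893% of those windows. A window holds only the 250 bases before the start site, and sites farther upstream were not searched. The 0 of 8 therefore does not show that these genes lack such sites. All motifs were searched on both strands, the half-site lies within the full element, and a match in these letters is a description of the sequence and not a measured binding site.

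Of the 16 member probe sets, 12 passed the filter on low values and were tested, with at least 1 for each of the 10 genes. The 4 others were further probe sets of Fos (161716_at), Egr1 (161802_i_at), Atf3 (161645_r_at) and Klf4 (161185_i_at). They read 11 to 29.3, 1.8 to 17.2, 2.0 to 2.3 and 0.5 to 1.5, below the filter of 39.4 on all 6 arrays, and are no measure of their transcripts. Values are the authors' deposited intensities, and a level is compared only within a probe set, since probe sets differ in brightness for the same amount of RNA.

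**Figure D1:**
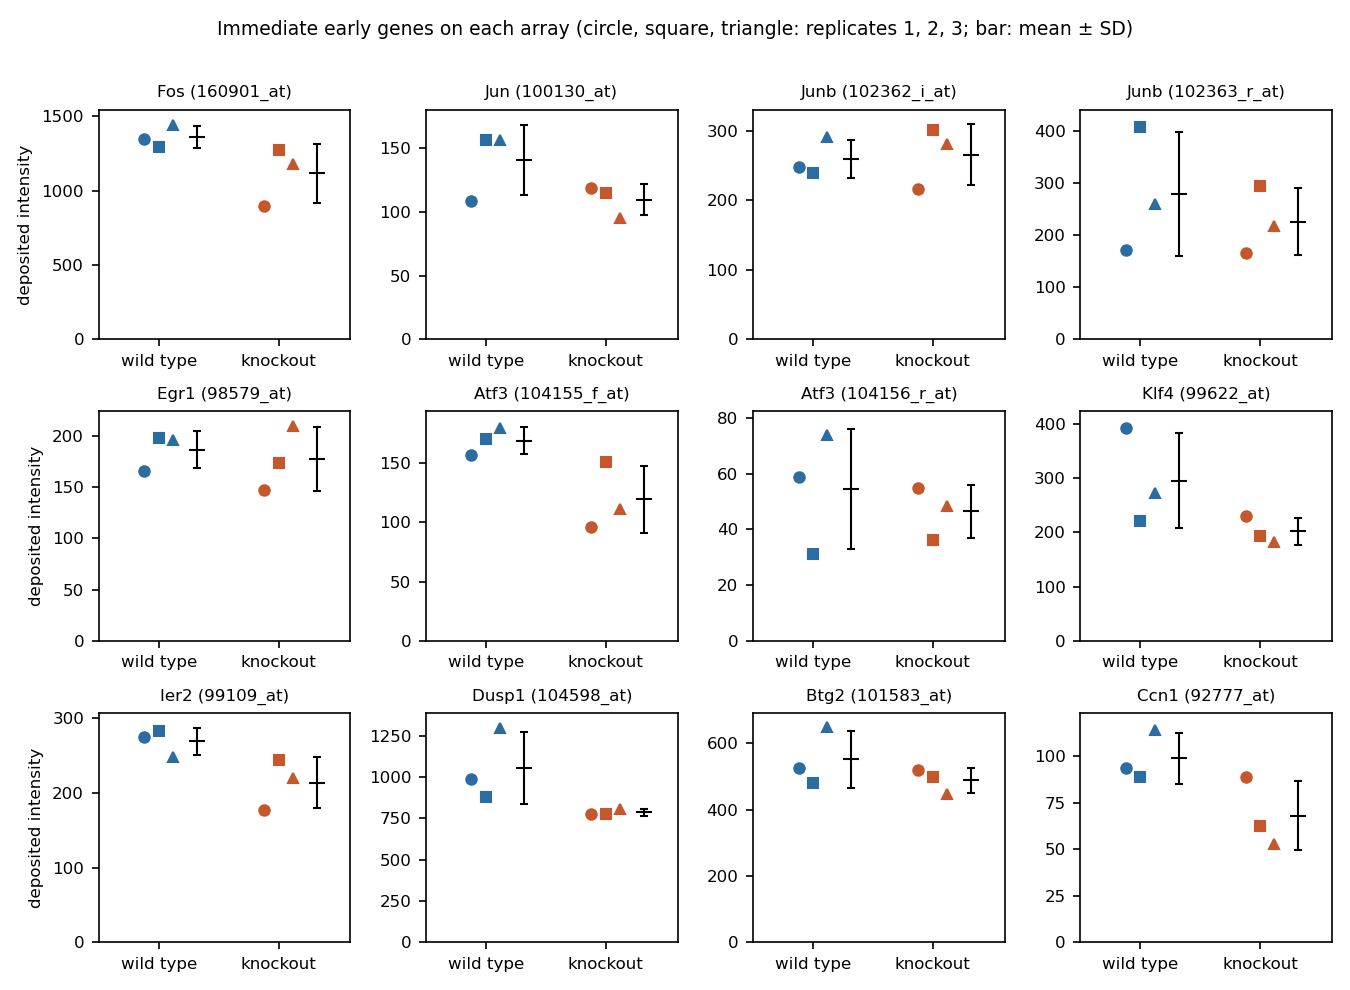
Deposited intensity (linear axis from 0) of the 12 member probe sets tested, with a circle, square and triangle for replicates 1, 2 and 3 of each group and a bar for mean ± SD (n = 3). For Fos, Ier2, Dusp1 and the Atf3 probe set 104155_f_at each knockout array lies below each wild-type array.

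The AP-1 subunits differed in what they showed. Fos, the subunit with the sharpest induction, read 1346.7, 1292.4 and 1444.2 on the wild-type arrays and 896.0, 1274.0 and 1179.2 on the knockout arrays. The groups did not overlap, but knockout replicate 2 lay only just under the lowest wild-type array, and knockout replicate 1 was far below the rest. The wild-type mean was 1361 ± 76.9 and the knockout mean 1116 ± 197 (SD, n = 3 each), and the log2 difference was -0.30 ± 0.14 (SE; limma adjusted p = 0.923; unadjusted limma p = 0.0534; exact permutation p = 0.1, the smallest that 3 against 3 arrays allow). Without knockout replicate 1 the difference of Fos was -0.15.

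Jun, the subunit that pairs with Fos, read 109.0, 156.5 and 156.7 with the receptor and 119.0, 114.7 and 95.6 without it. Wild-type replicate 1 lay among the knockout arrays, so the groups overlapped. The log2 difference was -0.34 ± 0.18 (SE; limma adjusted p = 0.937; exact permutation p = 0.3), and -0.52 without that array.

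Junb, an AP-1 subunit that often restrains Jun, was measured by 2 probe sets that disagreed. The first (102362_i_at) read 248.4, 239.3 and 290.7 in the wild-type samples and 216.4, 300.8 and 281.2 in the knockout samples, which gave a log2 difference of 0.028 ± 0.16 (SE; limma adjusted p = 0.996). The second (102363_r_at) read 170.8, 408.3 and 259.8 against 165.6, 294.6 and 217.9, a log2 difference of -0.26 ± 0.31 (SE; limma adjusted p = 0.964). Both overlapped widely between the groups, and in both the lowest array was knockout replicate 1. The first has the higher mean and stands for Junb where 1 probe set per gene is used. Its 95% confidence interval for the log2 difference, -0.32 to 0.38, holds both a decrease as large as that of Fos and an increase.

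Among the other transcription factors, Atf3, a stress-induced member of the ATF/CREB family, read 157.0, 170.4 and 179.2 on the wild-type arrays and 96.2, 151.1 and 111.6 on the knockout arrays with probe set 104155_f_at. The knockout arrays were spread over a wider range than the wild-type arrays, and the highest of them came close to the lowest wild-type array without reaching it. The log2 difference was -0.52 ± 0.18 (SE; limma adjusted p = 0.923; unadjusted limma p = 0.0161, the smallest among the 12; exact permutation p = 0.1). The suffix of this probe set marks probes that can match related sequences, so its identity is less certain than that of a plain probe set. The other tested Atf3 probe set (104156_r_at) was dim, at 58.9, 31.1 and 73.7 against 54.8, 36.2 and 48.3 in the knockout. It passed the filter on 4 of the 6 arrays, its groups overlapped, and its log2 difference was -0.16 ± 0.34 (SE; limma adjusted p = 0.984).

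Klf4, a zinc-finger factor of endothelial and epithelial cells that also responds to serum and stress, read 391.8, 221.3 and 271.5 on the wild-type arrays and 230.1, 193.9 and 181.5 on the knockout arrays. Knockout replicate 1 lay above wild-type replicate 2, and wild-type replicate 1 stood well above the rest. The log2 difference was -0.51 ± 0.20 (SE; limma adjusted p = 0.923; exact permutation p = 0.2), and -0.29 without wild-type replicate 1. Egr1, a zinc-finger factor induced by growth factors and activity, read 165.9, 198.5 and 196.1 on the wild-type arrays and 147.8, 174.1 and 210.4 on the knockout arrays. The highest of the 6 values and the lowest were both knockout arrays. The log2 difference of -0.085 ± 0.16 (SE; limma adjusted p = 0.984; exact permutation p = 0.7) had a 95% confidence interval of -0.45 to 0.28.

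Ier2, a short nuclear protein of the early response, read 275.2, 282.8 and 248.6 on the wild-type arrays and 177.7, 244.5 and 219.2 on the knockout arrays. The groups did not overlap, again with knockout replicate 1 lowest. The log2 difference was -0.34 ± 0.15 (SE; limma adjusted p = 0.923; exact permutation p = 0.1), and -0.21 without that array.

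The feedback and effector genes had log2 differences below 0. Dusp1, the phosphatase of MAP kinases, read 990.8, 879.9 and 1296.3 on the wild-type arrays and 775.2, 776.3 and 809.7 on the knockout arrays. The knockout arrays were nearly equal (787 ± 19.6, SD, n = 3), while the wild-type arrays spread over 1056 ± 216 (SD, n = 3) above them. The log2 difference was -0.40 ± 0.14 (SE; limma adjusted p = 0.923; unadjusted limma p = 0.0181; exact permutation p = 0.1). Without wild-type replicate 3, the highest array, it was -0.25.

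Btg2, an antiproliferative factor that promotes the shortening of messenger RNA tails, read 525.3, 481.1 and 648.7 against 520.6, 499.2 and 446.2. Apart from a high wild-type replicate 3 the arrays lay close together, and the log2 difference was -0.17 ± 0.14 (SE; limma adjusted p = 0.958; exact permutation p = 0.4). Without that array it was -0.044, and it was -0.26 without wild-type replicate 2 and -0.10 without knockout replicate 3. Ccn1, a secreted matricellular protein induced by stretch and serum, read 93.8, 88.6 and 114.2 on the wild-type arrays and 88.8, 62.7 and 53.0 on the knockout arrays. Knockout replicate 1 was level with the lowest wild-type array, so the groups overlapped. Its log2 difference of -0.56 ± 0.21 was the largest in size of the 12 (SE; limma adjusted p = 0.923; exact permutation p = 0.2).

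**Figure D2:**
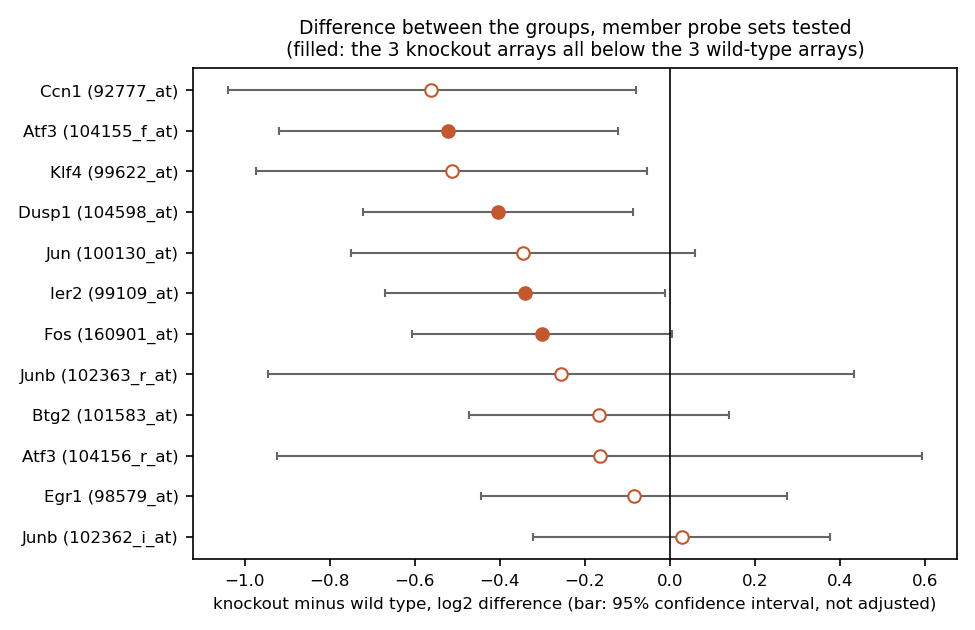
Log2 difference, knockout minus wild type, for the 12 member probe sets tested, with 95% confidence intervals of the limma fit that are not adjusted for the number of tests. Filled points mark the 4 probe sets whose groups do not overlap, and 5 of the 12 intervals (Ccn1, Atf3 104155_f_at, Klf4, Dusp1 and Ier2) lie wholly below 0.

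As a set, 11 of the 12 probe sets had a log2 difference below 0, where 53.2% of all 6369 probe sets tested did. Junb and Atf3 each hold more than 1 of the 12, and genes measured on the same arrays are not independent. The members were also chosen with earlier results of these data known, so the counts for the set are a description only. No member passed an adjusted p of 0.05, and 0% of all probe sets tested did (0 of 6369; the smallest adjusted p in limma was 0.923, and 334, or 5.24%, had an unadjusted p under 0.05 in either direction). At an unadjusted limma p under 0.05 there were 5 member probe sets, all lower (Atf3, Dusp1, Ccn1, Klf4 and Ier2), beside 2.43% of all probe sets tested in that direction. The groups did not overlap for 4 of the 12, each lower in the knockout (Fos, Atf3, Ier2 and Dusp1), beside 5.23% of all probe sets tested. With 1 probe set per gene, 9 of 10 genes lay below 0, with a median log2 difference of -0.34 against -0.016 over all probe sets tested. The spread between replicates was ordinary: the median SD within groups was 0.225 on the log2 scale for the 12 probe sets and 0.212 for all probe sets tested.

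Leaving out an array can only add to the probe sets without overlap. Their number among the 12 members was then 4 to 8, beside 8.6% to 13.0% of all probe sets tested. It was 8 without wild-type replicate 2, when Klf4, Btg2, Ccn1 and the dim Atf3 probe set joined, and 6 without knockout replicate 1, when Klf4 and Ccn1 joined. Within the 4 arrays that share a title prefix 10 of 10 genes were lower, with a median log2 difference of -0.42. The median over all probe sets tested was -0.011 on these arrays. In the other 2 arrays, 1 of each group, 8 of 10 were lower with a median of -0.19, and Junb (0.33) and Btg2 (0.053) were higher. Fos was nearly level there, at -0.021. Those 2 arrays differed in brightness as a whole, with a median intensity of 40.5 on the wild-type array and 36.8 on the knockout array. The share of all probe sets that were lower was taken neither for these 2 arrays nor for the 4.

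The 10 genes also gave each array a level of its own, taken as the mean over genes of the log2 value minus that gene's mean over the 6 arrays. It was 0.12, 0.082 and 0.28 in wild-type replicates 1, 2 and 3 and -0.22, -0.070 and -0.19 in the knockout replicates. Each wild-type array lay above 0 and each knockout array below. The difference between the group means was -0.32 on the log2 scale (wild type 0.16 ± 0.10, knockout -0.16 ± 0.079, SD, n = 3 each).

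The ends of that range were held by different genes. Wild-type replicate 3 was the highest array for 6 of the 10 genes (Fos, Jun, Atf3, Dusp1, Btg2 and Ccn1) and lay above the mean for 10 of 10. Knockout replicate 1 was the lowest array for 6 (Fos, Junb, Egr1, Atf3, Ier2 and Dusp1), and knockout replicate 3 for the other 4 (Jun, Klf4, Btg2 and Ccn1). In knockout replicate 3 Egr1 was at its highest, and Junb was highest in knockout replicate 2.

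**Figure D3:**
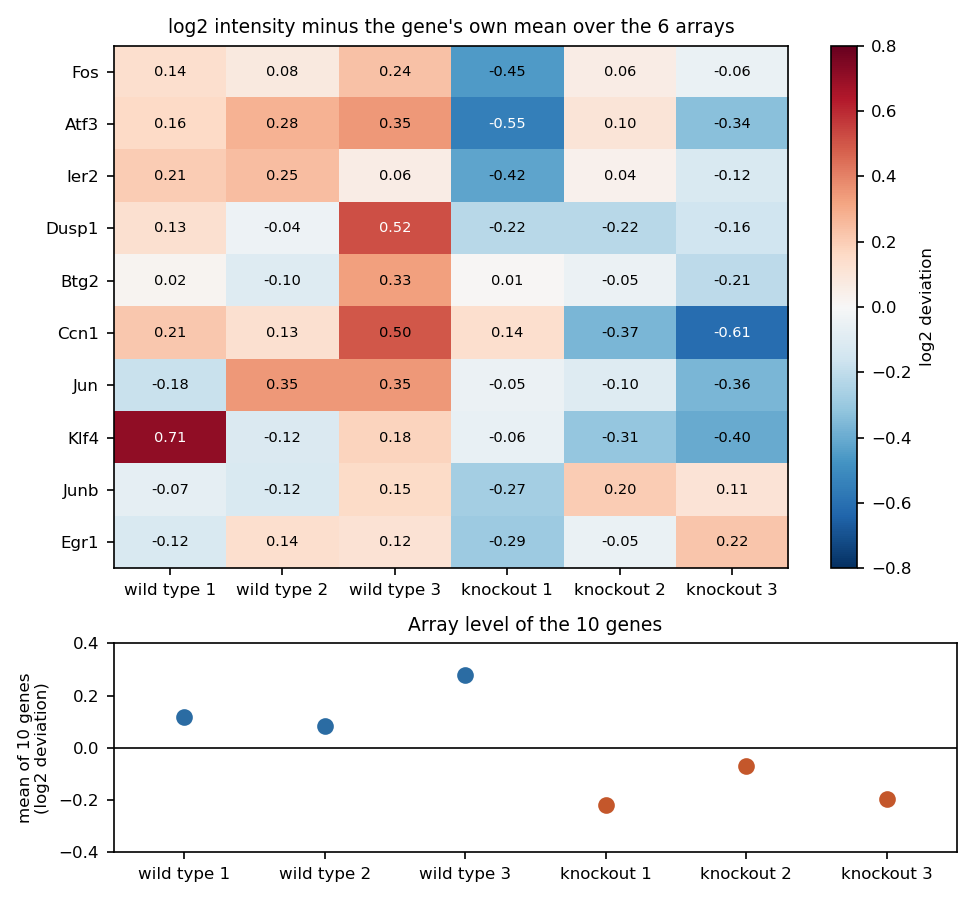
Upper panel: log2 intensity minus the gene's mean over the 6 arrays, for 10 genes (rows) and 6 arrays (columns). Lower panel: the mean of the 10 genes on each array, which is 0.082 to 0.28 on the wild-type arrays and -0.22 to -0.070 on the knockout arrays.

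Across the 6 arrays most pairs of these genes varied in the same direction. Of 45 pairs of genes, 39 had a positive Pearson r of their log2 values, and the median r was 0.43. Fos and Dusp1 had the highest median r to the other 9 genes (0.596 and 0.583), and Junb and Egr1 the lowest (0.279 and 0.295). Over all pairs of probe sets tested the median r was near 0 (-0.0004) and 50% were positive. These pairs share the same 6 arrays and are not independent, and the 2 groups contribute to r because most of these genes were lower on the knockout arrays. With each group's mean subtracted the median r was 0.14, and 28 of 45 pairs were positive. The order of the genes then changed: Junb had the highest median r to the others (0.54) and Ccn1 the lowest (-0.351), with Fos at 0.327 and Dusp1 at 0.174. Within the 4 arrays of one title prefix the median r was 0.58, and the other prefix holds only 2 arrays, too few for a value. Those 4 arrays come from both groups, and no group mean was subtracted for the 0.58. The group difference is part of it, with a median log2 difference of -0.42 on these 4 arrays against -0.34 on all 6.

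In the exact permutation test of Pearson's r (720 orderings, two-sided), 4 of the 45 pairs had p under 0.05 and 0 did after Benjamini-Hochberg adjustment over the 45 pairs, with a smallest adjusted p of 0.188. For Spearman's rho the counts were 6 and 0. The closest pair was Fos and Atf3, with r = 0.917 (exact permutation p = 0.00417, adjusted p = 0.188) and rho = 0.943 (exact permutation p = 0.0167, adjusted p = 0.188). It stood at r = 0.877 without wild-type replicate 3 and knockout replicate 1, the 2 arrays farthest from the median of Fos, and at 0.844 with group means subtracted.

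Atf3 and Ier2 followed at r = 0.901 (exact permutation p = 0.0153, adjusted p = 0.344; rho = 0.829, exact permutation p = 0.0583, adjusted p = 0.375). That relation fell to r = 0.106 without knockout replicates 1 and 3, the 2 arrays farthest from the median of Atf3. Fos and Ier2 had r = 0.882 (exact permutation p = 0.0319, adjusted p = 0.422; rho = 0.771, exact permutation p = 0.103, adjusted p = 0.579), and 0.891 without wild-type replicate 3 and knockout replicate 1. Btg2 and Ccn1 had r = 0.815 (exact permutation p = 0.0375, adjusted p = 0.422; rho = 0.943, exact permutation p = 0.0167, adjusted p = 0.188), which fell to 0.312 without wild-type replicate 3 and knockout replicate 3. Dusp1 and Btg2 had r = 0.840 (exact permutation p = 0.0583, adjusted p = 0.525; rho = 0.486, exact permutation p = 0.356, adjusted p = 0.725), which turned to -0.426 without wild-type replicates 1 and 3. For each of these 5 pairs the 2 arrays left out were those farthest from the median of the gene named first. Arrays chosen by the other gene were not tried. These values therefore do not rank the pairs by how far they rest on single arrays.

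With group means subtracted, 2 sets of genes were picked after their values were known and are given as a description only. Fos, Junb, Atf3 and Ier2 had r between 0.587 and 0.968 among themselves, the highest for Fos and Junb. Btg2 had r = 0.825 with Dusp1 and 0.769 with Ccn1, but Dusp1 and Ccn1 had r = 0.361. Between the sets r ran from -0.82, for Ier2 and Ccn1, to 0.54, for Junb and Dusp1, so the second set was not separated from the first. Knockout replicate 1 is the lowest array for each of the first 4 genes, and wild-type replicate 3 is the highest for each of the other 3.

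**Figure D4:**
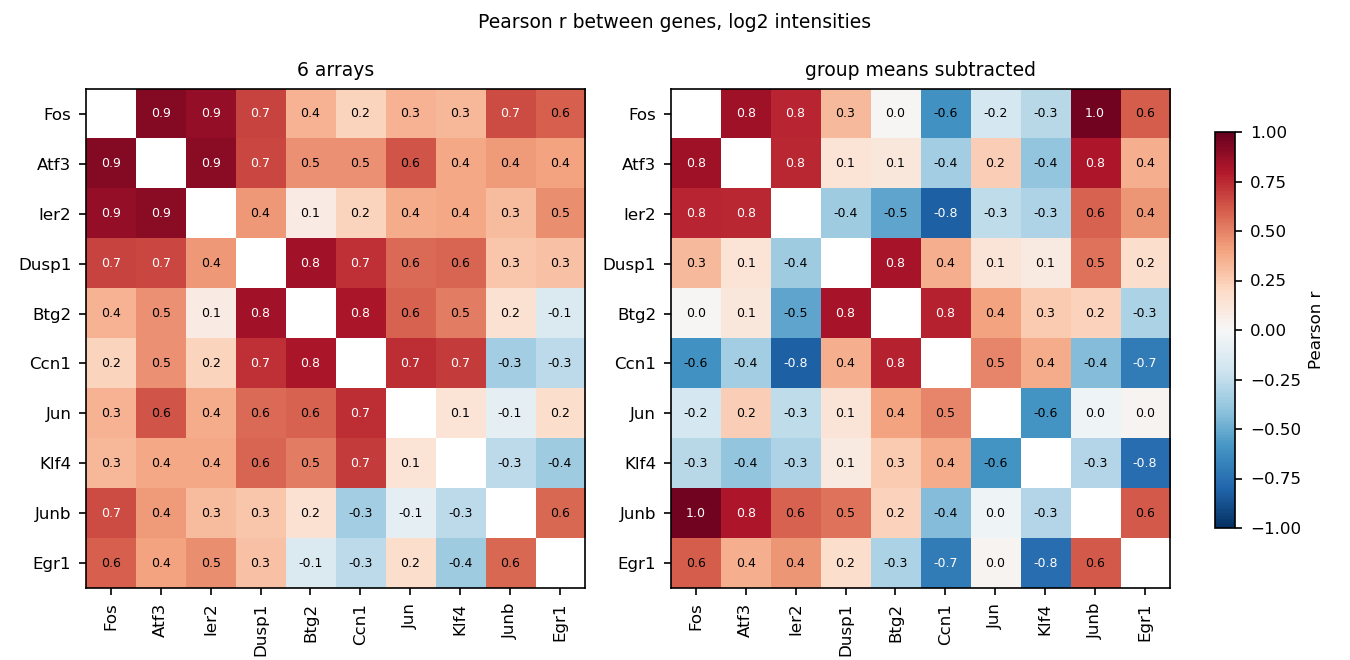
Pearson r between the log2 intensities of the 10 genes over the 6 arrays (left) and after subtracting each group's mean (right), with the color scale from -1 to 1. On the left 39 of 45 pairs are positive, and on the right 28 of 45.

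Other immediate early genes also lay mostly below 0, nearer to it than the 10. Of a list of 55, 38 were tested, with 1 probe set per gene: 30 had a log2 difference below 0 and the median was -0.14, against -0.34 for the 10. No gene of the list passed an adjusted p of 0.05 in limma (lowest 0.923). At an unadjusted limma p under 0.05 there were 2 of the 38, Tob1 and Socs3, both lower. Over all probe sets tested 2.43% were lower at that p, and 5.24% reached it in either direction. Socs3, which dampens cytokine signalling, read 89.5, 101.6 and 105.1 on the wild-type arrays and 71.3, 80.8 and 77.4 on the knockout arrays. Its probe set (162206_f_at) carries the same suffix as Atf3 104155_f_at, so its identity is likewise less certain. The groups did not overlap for 4 of the 38 (10.5%), each lower in the knockout, beside 5.23% of all probe sets tested in that direction and 10.7% in either. They were Socs3, the chemokine Cxcl1, and Nr4a1 and Egr2, the last 2 named after their values were seen. For Nr4a1, an orphan nuclear receptor induced by exercise, the highest knockout array and the lowest wild-type array all but met, at 219.2 and 219.7.

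Jund, the AP-1 subunit that is made constantly, read 978.5, 1287.3 and 1148.6 on the wild-type arrays and 1599.8, 1139.9 and 1419.7 on the knockout arrays, which gave a log2 difference of 0.28 ± 0.15 (SE; limma adjusted p = 0.937). Its r with the array level of the 10 genes was -0.72. Fosb, a close paralog of Fos named after its values were seen, read 305.3, 321.9 and 362.3 against 279.8, 375.3 and 377.3, a log2 difference of 0.051. Both overlapped between the groups.

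The kinases and factors that act upstream of these genes, or with them, were split evenly. Of 47 listed, 21 were tested, 10 below 0 and 11 above, with a median log2 difference of 0.0019. None passed the adjusted threshold in limma (lowest adjusted p 0.923). At an unadjusted limma p under 0.05 there were 2 of the 21, both higher. Over all 6369 probe sets tested, 179 were higher at that p, and 5.24% reached it in either direction. Atf4, the translation-controlled stress factor, read 591.2, 606.8 and 623.5 on the wild-type arrays and 654.9, 759.7 and 733.5 on the knockout arrays, without overlap. The stress kinase genes Mapk12 and Map2k3 were also higher without overlap, with log2 differences of 0.24 and 0.27. Nab2, a corepressor of the EGR factors named after its values were seen, was lower without overlap, at 51.5, 44.7 and 45.1 against 26.7, 43.2 and 43.5, a log2 difference of -0.35. The groups thus did not overlap for 4 of the 21 (19.0%) beside 10.7% of all probe sets tested in either direction, with 3 higher beside 5.45%. Mrtfa, a coactivator of serum response factor, stood at 0.47 and Mapkapk2, a kinase that p38 activates, at 0.31, both with overlap. Of 14 tested genes for heat shock, glucocorticoid and hypoxia responses, 12 lay below 0 with a median of -0.088, and 0 were without overlap or had an unadjusted limma p under 0.05. In that list Angptl4, which inhibits lipoprotein lipase, stood at -0.60 and metallothionein Mt2 at -0.48, and the chaperones Hspa8, Hsph1 and Hspa1b stood at -0.23, -0.18 and -0.20.

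**Figure D5:**
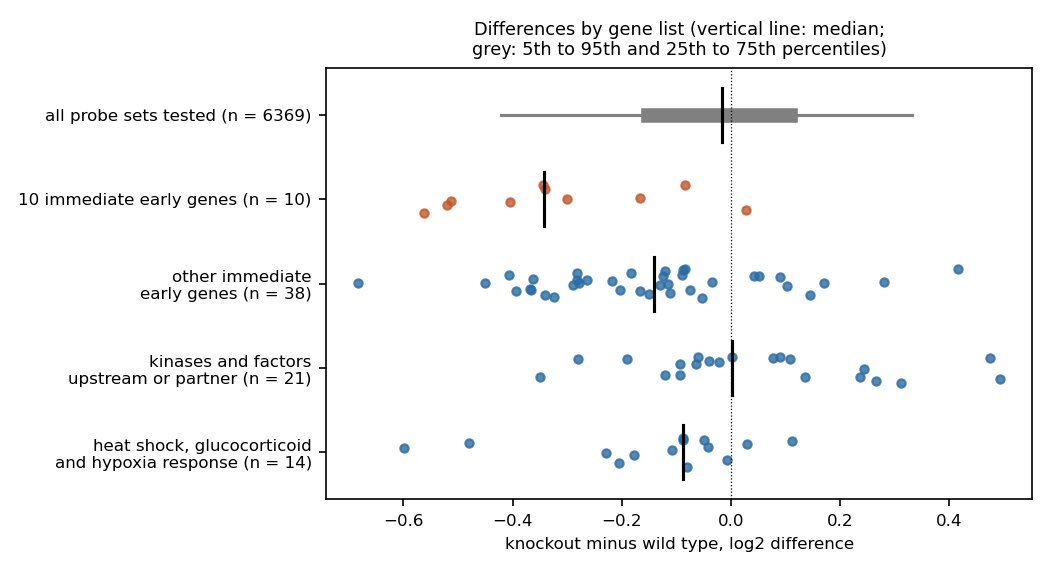
Log2 difference, knockout minus wild type, for all 6369 probe sets tested (grey bar) and for 4 gene lists with 1 point per gene and a vertical line at the median. The medians are -0.34 for the 10 immediate early genes, -0.14 for 38 others, 0.0019 for 21 upstream or partner genes, -0.088 for 14 stress response genes and -0.016 for all probe sets tested.

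The likeness of other genes to the array level of the 10 was taken as the r of their log2 values with it. That level separates the groups completely, so a gene lower in the knockout tends to a positive r, and the order of the lists by r largely restates their order by log2 difference. Over 4911 other genes tested the median r with that level was 0.026 and 51.7% were positive. The median was 0.45 for the 38 other immediate early genes, 31 of them positive, 0.38 for the 14 stress response genes and 0.053 for the 21 upstream and partner genes. With each group's mean subtracted, a measure added after the values were seen, the medians were 0.18, with 22 of 38 positive, 0.465 and 0.052, and that of all 4911 genes was 0.044. The 8 genes most like it were Cpsf3 (r = 0.992), Pros1 (0.983), Nicn1 (0.969), Styx (0.969), Spg21 (0.966), Cops7a (0.963), 1110051M20Rik (0.951) and Cul2 (0.951). None of these is on the list of other immediate early genes, and of the 50 most like it only Socs3 (r = 0.933) is. With 6 arrays and so many genes such values are a description only.

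Immediate early genes are made in several cell types of muscle, and in a whole-muscle sample fewer cells of a type and less RNA per cell cannot be told apart. The summed intensity of 7 endothelial markers (all 7 measured) was 923.3 to 938.8 in wild type and 847.0 to 893.5 in the knockout, without overlap, and none of them was below the filter on all arrays. Of 7 endothelial genes 6 had a log2 difference below 0, and their median r with the array level of the 10 was 0.35 (0.24 with group means subtracted). Taken singly, only Tek was without overlap, and 10.7% of all probe sets tested were so in either direction. Cdh5, the largest part of the sum, overlapped, at 297.5, 244.8 and 263.6 on the wild-type arrays against 257.1, 279.0 and 298.9. Of the 10 soleus fibre markers 9 had a log2 difference above 0. Among them Myl3, Mb and Acta1 were higher without overlap, while the other fibre markers and the fibre sum overlapped. The lowest knockout and highest wild-type arrays read 8321.9 and 8005.1 for Myl3, 8151.1 and 7940.9 for Mb, and 11326.6 and 11140.8 for Acta1. Over all probe sets tested 5.45% were higher without overlap. The median r of the fibre markers with the array level was -0.40 (0.14 with group means subtracted). The median r was 0.30 for fibroblasts (3 of 6 genes lower) and 0.28 for adipocytes (3 of 3 lower), and -0.027 and 0.41 with group means subtracted. The sums overlapped between the groups for macrophages (9 of 9 measured, 948.7 to 1377 and 903.1 to 1092), neutrophils (5 of 5, 89.3 to 144.4 and 94.4 to 162.1), red blood cells (3 of 5, 1733 to 4724 and 2117 to 2381) and fibroblasts (6 of 6, 4346 to 5446 and 4585 to 4979). They also overlapped for smooth muscle (5 of 5, 654.6 to 744.1 and 711.0 to 770.9), adipocytes (3 of 5, 2723 to 3727 and 2559 to 3033), Schwann cells (3 of 5, 297.0 to 407.6 and 271.2 to 326.5) and satellite cells (3 of 4, 216.0 to 242.8 and 173.7 to 230.3). The defining markers S100a9, Ly6g and Ngp of neutrophils and Adgre1 and Mrc1 of macrophages lay below the filter on all 6 arrays, as did Cnn1 of smooth muscle, S100b of Schwann cells and Myf5 of satellite cells. Macrophage and adipocyte sums were highest in wild-type replicate 3, the array where most of the 10 genes peaked. The markers did not all follow their sums. Most of the adipocyte sum was Lpl, which peaked there. Adipoq peaked in wild-type replicate 2 (231.8) and Fabp4 in wild-type replicate 1 (105.9). Of the macrophage markers, Lyz2, C1qa and C1qc peaked in wild-type replicate 3, while Cd68, Csf1r, C1qb and Cd14 peaked on other arrays. The part of any cell type in the lower readings of the 10 genes was not tested.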

How the data were processed

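Total RNA of 6 soleus samples was hybridised to Affymetrix mouse arrays, 1 array each. The authors deposited linear signal intensities, 1 per probe set. Their software is not given in the sources. The mean without the lowest and highest 2% was 100.07 on each array, so the authors' scaling was kept. Background correction could not be varied.

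Of 12488 probe sets, 66 controls were set aside, and only probe sets with exactly 1 symbol in the platform annotation were named (10833 with 1, 396 with several, 1193 with none). Values under the 20th percentile (7.8) were set to it and taken to log2. Probe sets above the median (39.4) on at least 3 of 6 arrays were tested, which left 6369. Knockout minus wild type was fitted over all of them with limma 3.58.1 in R 4.3.3 (eBayes with an intensity trend), two-sided, and p-values were adjusted by Benjamini-Hochberg. A gene with several probe sets is represented by that with the highest mean. Correlations used Python 3.11.15 and numpy 2.4.6, and figures matplotlib 3.10.9.

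The members and lists were chosen with earlier results of these data known. Named are all 10 members, up to 5 genes per list with the smallest unadjusted p, and the 8 genes most correlated with the array level. Replicates are numbered in order of deposit. Precision is limited by the number of arrays, with a median standard error of 0.18 for a log2 difference. On data simulated from the real means and spreads of 6369 probe sets, limma found 61 of 100 probe sets with a 2-fold change and 93 of 100 with a 4-fold change, and made 7 false calls. Both sets of 100 were planted in the same run, which eases the adjustment for each. No change below 2-fold was simulated, so recovery of differences as small as those of the 10 genes was not measured. Alternatives were other normalizations, floors, filters and variance models, blocks by title, the 4 arrays of one title prefix, and leaving out each array.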

Additional observations from a re-analysis of the deposited data

How the results depend on the processing

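No member passed an adjusted p of 0.05 under any of 19 alternatives of the limma fit, and the lowest adjusted p of a member was 0.469. Over all probe sets 1 passed without the filter (adjusted p = 0.024), 1 with adjacent title numbers as a replicate block (adjusted p = 0.00313), and 0 to 1 with 1 array left out, the 1 without knockout replicate 1 (adjusted p = 0.0418); none of these was a member. Title numbers were not taken to pair the samples, since arrays with adjacent title numbers deviated together at r = -0.005, 0.035 and -0.003 over all probe sets tested, and with that block the median log2 difference of the 10 genes was -0.34 and the median r 0.49.

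Fos, Jun, Klf4, Ier2, Dusp1, Btg2, Ccn1 and the Atf3 probe set 104155_f_at kept their direction under each alternative run. Of 226 member values 9 reversed. Junb 102362_i_at went from 0.028 to -0.12 over the 4 arrays sharing a title prefix, and ranged over -0.068 to 0.17 with 1 array left out at a time. Over such fits Junb 102363_r_at ran from -0.57 to 0.062, Egr1 from -0.22 to 0.040 and Atf3 104156_r_at from -0.53 to 0.096. The median log2 difference of the 10 genes was -0.28 with median scaling, where all probe sets tested had a median of 0.051, and -0.37 after quantile normalization or cyclic loess. It was -0.21 over the 16 probe sets, of which 4 lie below the filter, and leaving out 1 array gave -0.40 to -0.26, the latter without wild-type replicate 3. The mean difference ran from -0.41 to -0.25 over its alternatives. The median r of 0.43 was 0.14 with group means subtracted and, without that subtraction, 0.58 over the 4 arrays. Leaving out 1 array gave 0.29 (without wild-type replicate 3) to 0.52 (without knockout replicate 1). The cause of these shifts was not tested.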
